A study of Mus musculus with 6 samples.

Results

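The axoneme is the motor core of cilia and of the sperm tail, and 68 genes for its dynein arms, radial spokes, tektins and other parts were followed across meiosis in wild-type and Rnf8 knockout testes. They are the genes whose symbol begins with Dnah, Dnai, Dnal, Dnaaf, Cfap, Rsph or Tekt, taken from array clusters that name a single gene. Where a gene had several clusters, the cluster of highest mean over the 6 arrays was used. All 68 genes with such a cluster reached a log2 intensity of 6 on at least 1 array, so all 68 are among the 17925 genes tested. Another 5 gene symbols of these families, Cfap73, Cfap97d2, Cfap99, Rsph3a and Rsph3b, have no cluster of their own on the array and were not tested.

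RNA came from C57BL/6 mice, either wild type (WT) or Rnf8 knockout (KO). Rnf8 encodes a ubiquitin ligase of the DNA damage response. Each preparation pooled 3 to 4 males and used gravity sedimentation through albumin, to above 95% enrichment according to the design text, and RNA was read on Affymetrix MoGene 1.0 ST arrays. The data hold 2 arrays of WT and 2 of KO pachytene spermatocytes (cells in meiotic prophase) and a single round spermatid array per genotype, from the haploid cells that form after meiosis. The labels do not state whether the arrays within a group are separate preparations, so p-values reflect array-to-array spread alone, possibly technical.

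In the axoneme, doublet microtubules surround a central pair. Dynein motors stand on each doublet in an outer and an inner row, are built from heavy, intermediate and light chains, and are assembled in the cytoplasm with the help of assembly factors before they are carried to the tail. Radial spokes reach from the doublets to the central apparatus and pass signals to the inner arms, while tektins and other proteins line the inside of the doublets. In the testis the tail begins to grow in round spermatids, after meiosis, and many of its genes are already transcribed in spermatocytes.

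Transcript levels are given as log2 intensity, so a difference of 1 is 2-fold. Pachytene values are listed in the order WT array 1, WT array 2, KO array 1 and KO array 2, and round spermatid values as WT, then KO. A level of a gene cannot be set against the level of another gene, because each is read by its own probes. Median intensity per array lay between 197 and 218, and the number of arrays limits the precision. The cluster of Rnf8, which also lists the gene Gm28043, had a pachytene mean of 8.69 ± 0.25 (SD, n = 2) for WT and of 7.95 ± 0.13 (SD, n = 2) for KO, and its round spermatid values were closer together, 7.78 for WT and 7.50 for KO. KO pachytene array 2 stood apart from the other pachytene arrays on the second principal component of all tested genes (12.6% of the variance), at -26.9 against 2.46 to 16.2. Most markers differed as labelled: 10 of 13 pachytene markers fell and 10 of 13 round spermatid markers rose in round spermatids. The pachytene markers Ccna1, Ovol1 and Ldhc did not pass. Nor did the round spermatid markers Prm1, Prm2 and Acr, which already read 12.67 or more on every pachytene array. Prm1 read 12.85 to 13.18 there, and 13.23 and 13.20 in round spermatids. The reason was not tested. Pachytene markers averaged 11.37 to 11.58 per pachytene array and 10.32 to 10.37 per round spermatid array. The mean of the round spermatid markers went from between 11.24 and 11.64 to between 12.36 and 12.37. Somatic lists moved in both directions. Lower in round spermatids were 7 of 8 Leydig cell markers (mean 8.86 to 9.15 on the pachytene arrays, 7.38 to 7.58 in round spermatids) and 8 of 16 Sertoli cell markers (8.77 to 9.06, then 8.29 to 8.51). Of the Leydig markers, Hsd3b1 reached log2 6 only on the pachytene arrays. Higher were 2 of 6 macrophage and blood markers, C1qb by 1.00 and Adgre1 by 0.80 (list mean 6.97 to 7.13, then 7.35 to 7.48), and 1 of 9 peritubular and vessel markers, Dcn, by 2.86. Of 11 spermatogonial markers, Dmrt1 rose by 0.36 and Id4 fell by 1.94. Their part in the results on axoneme genes was not tested.

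The axoneme genes did not move as a block between the cell types. In an additive limma fit of cell type and genotype, 16 of the 68 rose in round spermatids (23.5%, against 17.8% of all genes tested) and 18 fell (26.5%, against 17.1%), at an adjusted p of 0.05. The median log2 difference was near 0 for the 68 genes, at -0.003, and -0.06 for all genes, while the median size of the difference without its sign was 0.37 and 0.23. All 5 tektins rose, 7 of 10 inner arm heavy chains fell, and 3 of 9 assembly factors fell with none rising. The 7 chains include the close copies Dnah7a, Dnah7b and Dnah7c, which may share probes and may not be independent. In bulk RNA, fewer cells of a type and less RNA per cell cannot be told apart. The counts rest on the round spermatid arrays: with either of them left out, fewer members passed as higher and fewer as lower. Without KO pachytene array 2, 16 rose and 19 fell.

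Counted by overlap, both round spermatid arrays lay above all 4 pachytene arrays in 22 members (32.4%, against 24.1% of all genes) and below all 4 in 26 (38.2%, against 26.4%). Within WT alone, 8 members rose (11.8%, against 11.5%) and 11 fell (16.2%, against 8.45%). Within KO, 9 rose (13.2%, against 8.36%) and 12 fell (17.6%, against 7.18%). These 2 counts come from a fit of the 4 groups that lends the spread of the pachytene pairs to the lone round spermatid arrays.

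**Figure D1:**
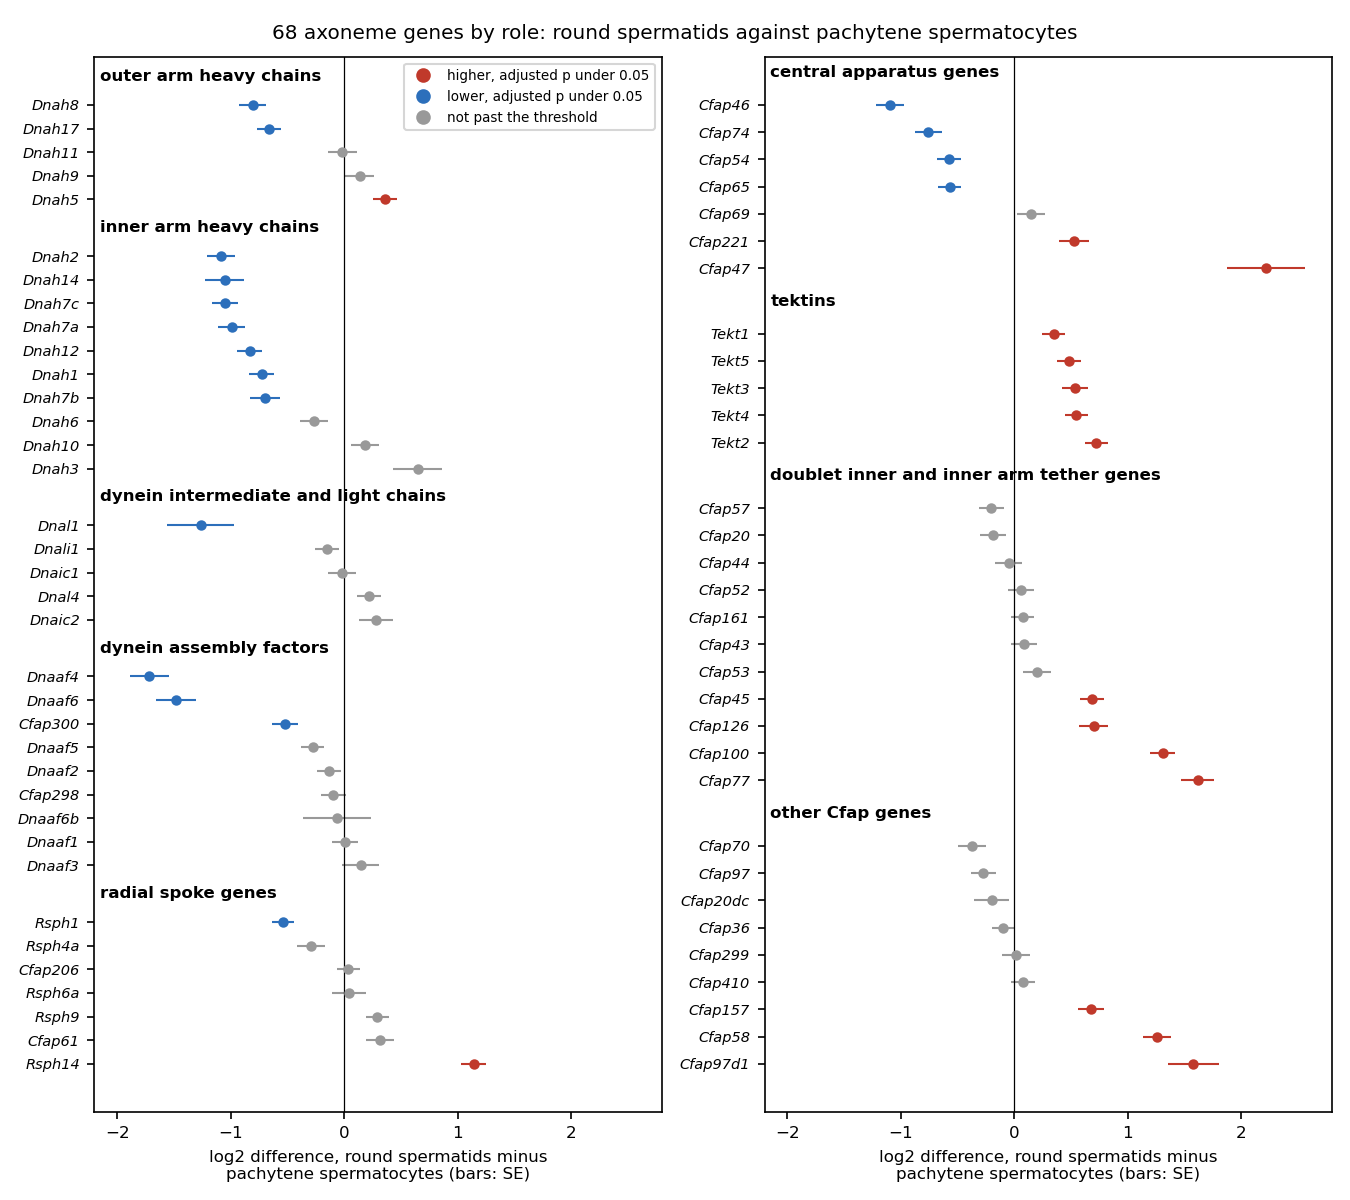
Log2 difference of round spermatids minus pachytene spermatocytes for each of the 68 genes, grouped by role, from the additive limma fit over 6 arrays, with bars for the standard error. Red marks the 16 genes that rose, blue the 18 that fell and grey those not past an adjusted p of 0.05. All 5 tektins lie to the right of 0 and 7 of 10 inner arm heavy chains are blue, the close copies Dnah7a, Dnah7b and Dnah7c among them.

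The heavy chains are the motor subunits themselves. Of the 5 outer arm heavy chains, Dnah8 and Dnah17, the pair known for the sperm tail, fell, and Dnah5, known for motile cilia of the airway, rose by 0.36 (SE 0.11, adjusted p = 0.0308). Dnah8 read 12.89, 12.61, 13.08 and 12.99 in pachytene spermatocytes and 11.90 and 12.27 in round spermatids, a fall of 1.75-fold (log2 difference -0.80, SE 0.12, adjusted p = 0.00144). Dnah17 fell by 0.66 on the log2 scale (adjusted p = 0.00207). The round spermatid arrays lay below every pachytene array for both. Dnah5 lay low on its arrays, with pachytene values from 6.83 to 6.97 and round spermatid values of 7.30 and 7.20, and its call was lost without either round spermatid array or either WT pachytene array. Dnah17 lost its call without the KO round spermatid array. Dnah9 and Dnah11, also known from airway cilia, differed by 0.14 and -0.01 and overlapped between the cell types.

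Inner arm heavy chains had the most falls of any group, with the close copies of Dnah7 counted as separate genes. Dnah1, Dnah2, Dnah7a, Dnah7b, Dnah7c, Dnah12 and Dnah14 passed as lower, and the median difference of the 10 was -0.78. Dnah2 read 11.37, 11.11, 11.17 and 11.30 in pachytene spermatocytes and 10.09 and 10.22 in round spermatids, 2.12-fold lower (log2 difference -1.08, SE 0.12, adjusted p = 0.00043). Dnah14, which is grouped here with the inner arm chains, went from 10.67, 10.07, 10.26 and 10.07 to 9.30 and 9.14 (log2 difference -1.05, SE 0.17, adjusted p = 0.0021). In both genes every round spermatid value lay under every pachytene value. Dnah12 fell by 0.83 (SE 0.11), from 11.82, 11.68, 11.60 and 11.78 to 10.95 and 10.82. Dnah1, the chain whose loss is known to disorganise the sperm tail, fell by 0.73 (SE 0.11), from 11.03, 10.82, 10.91 and 10.97 to 10.21 and 10.20. Neither gene overlapped between the cell types. Dnah6 (-0.26) and Dnah10 (0.18) did not pass, with adjusted p = 0.15 and 0.307. Of the 3 clusters of Dnah6, 1 passed as lower when fitted on its own.

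Dnah7a, Dnah7b and Dnah7c are close copies, and probes may be shared among them. Dnah7a read 10.88, 10.92, 10.91 and 10.68 in pachytene spermatocytes and 10.02 and 9.69 in round spermatids (log2 difference -0.99, SE 0.12, adjusted p = 0.000549). Dnah7c went from 11.44, 11.45, 11.58 and 11.58 to 10.56 and 10.37 (log2 difference -1.05, SE 0.12, adjusted p = 0.000406). Dnah7b went from 11.24, 11.49, 11.42 and 11.19 to 10.82 and 10.46 (log2 difference -0.70, SE 0.13, adjusted p = 0.00479). All 3 fell with no overlap between the cell types, and the call of Dnah7b was lost without the KO round spermatid array. A further pair of clusters that list all 3 copies together was lower by 0.62 and 1.00 in round spermatids, outside the tests. Promoter windows of Dnah7a and Dnah7b both hold an 8-base run in which a MYB site overlaps an RFX arm, that is, a single arm of the X-box bound by RFX factors. They are printed here from RefSeq (GRCm38.p6), 5′ to 3′ along the gene, with that run in capitals: Dnah7a from chr1:53706967-53706998 on the minus strand, and Dnah7b from chr1:46066676-46066707 on the plus strand.
Dnah7a: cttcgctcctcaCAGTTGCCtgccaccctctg
Dnah7b: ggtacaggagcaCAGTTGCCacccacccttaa
The stretches begin 214 and 177 bases before the annotated starts.

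Dnah3 and Dnah10 were the inner arm chains whose round spermatid values lay above all pachytene values. The chosen Dnah10 cluster did not pass, but of its 5 clusters, fitted each on its own among 19585 clusters, all had differences above 0 (0.15 to 0.42), 4 without overlap, and 1 passed as higher. The Dnah3 cluster of highest mean read 11.25, 11.79, 11.83 and 11.15 in pachytene spermatocytes and 12.25 and 12.05 in round spermatids, a difference of 0.65 (SE 0.22) that missed the threshold (adjusted p = 0.0529 in limma). Both round spermatid values lay above all pachytene values. The array carries 33 clusters for Dnah3, and in the same fit 32 of the 33 passed as higher in round spermatids. Differences ranged from 0.65 to 2.36 with a median of 1.73, and the cluster of highest mean gave the smallest. The KO pachytene arrays also differed from each other in these clusters: array 1 was above array 2 in all, by 0.28 to 2.31 with a median of 0.94. With the 33 clusters averaged, the difference was 1.69. Which exons each cluster covers is not known here.

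**Figure D2:**
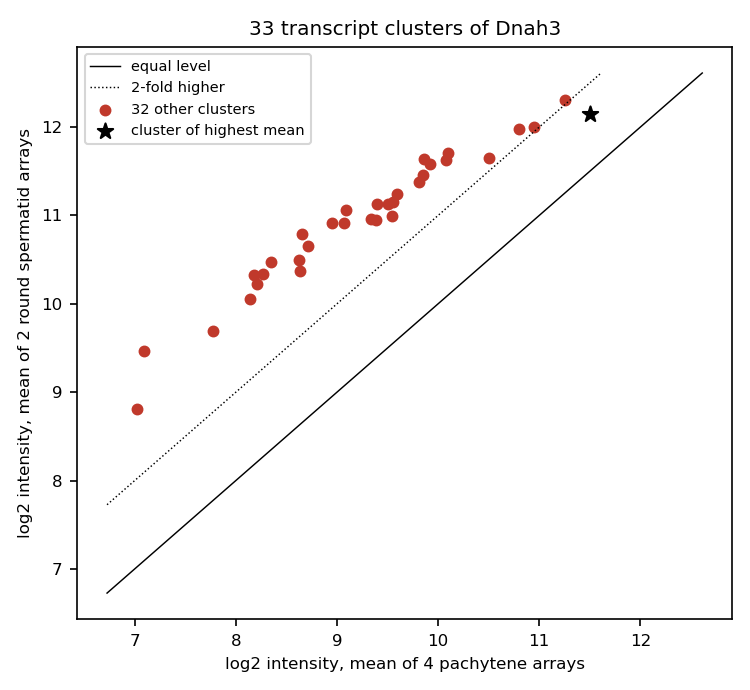
Mean log2 intensity of each of the 33 Dnah3 clusters on the 2 round spermatid arrays (vertical) against the 4 pachytene arrays (horizontal), with a solid line at equal level and a dotted line at 2-fold higher. All 33 points lie above the solid line, and the cluster of highest mean, marked by a star, has the smallest difference, 0.65.

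Among the 5 intermediate and light chains only Dnal1, a light chain of the outer arm, passed. Dnal1 read 9.84, 10.86, 10.17 and 9.44 in pachytene spermatocytes and 8.97 and 8.66 in round spermatids, 2.4-fold lower (log2 difference -1.26, SE 0.30, adjusted p = 0.0118). Its pachytene values were widely spread, though none reached down to the round spermatid values, and the call was lost without either round spermatid array. The outer arm intermediate chains Dnaic1 (-0.02) and Dnaic2 (0.28), the light chain Dnal4 (0.22) and the inner arm light intermediate chain Dnali1 (-0.15) did not pass.

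Dynein assembly factors act in the cytoplasm and are not part of the finished axoneme. Of 9 measured, 3 fell and none rose. Dnaaf4 showed the largest fall of all 68 genes, from 11.45, 12.07, 11.58 and 11.58 to 9.95 and 9.96, or 3.29-fold (log2 difference -1.72, SE 0.17, adjusted p = 0.000307). Dnaaf6 followed, from 10.14, 10.57, 10.32 and 9.82 to 8.89 and 8.57, or 2.79-fold (log2 difference -1.48, SE 0.18, adjusted p = 0.000543). The groups lay more than 0.9 apart at their nearest values in both genes. Cfap300, a further assembly factor, fell by 0.52 (SE 0.12, adjusted p = 0.00935), a call lost without either round spermatid array. Dnaaf1, Dnaaf2, Dnaaf3, Dnaaf5 and Cfap298 lay between -0.28 and 0.15, and none of these 5 passed.

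Dnaaf6 has a second annotated copy, Dnaaf6b, on the X chromosome, while Dnaaf6 itself is on chromosome 1. Dnaaf6b read 7.07, 7.86, 7.12 and 6.73 in pachytene spermatocytes and 7.97 and 6.30 in round spermatids, so its only high spermatid value was in WT and the cell types overlapped. RefSeq promoter windows of Dnaaf6, Dnaaf6b, Cfap298 and Cfap20dc hold a pair of facing RFX arms, GTTNCC followed by GGNAAC at 0 to 3 bases, a form close to the whole X-box of ciliary genes. The pair is shown because it was found in 4 of 65 member windows (6.15%) and in 0.804% of all 32851 windows. The 19 bases printed below for Dnaaf6b also stand in the Dnaaf6 stretch, so the matches of these copies are not independent. The stretches below are from GRCm38.p6, with RFX arms in capitals: Dnaaf6 from chr1:31222768-31222805 on the plus strand, Dnaaf6b from chrX:140062860-140062878 on the plus strand, and Cfap298 from chr16:90934892-90935049 on the minus strand.
Dnaaf6: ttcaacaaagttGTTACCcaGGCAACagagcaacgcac
Dnaaf6b: ttcaacaaagttGTTACCc
Cfap298: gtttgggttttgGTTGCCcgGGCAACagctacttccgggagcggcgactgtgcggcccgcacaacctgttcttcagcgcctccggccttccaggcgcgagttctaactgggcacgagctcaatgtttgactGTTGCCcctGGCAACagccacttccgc
The Cfap298 stretch holds such a pair at each end. In Dnaaf6b the pair begins 7 bases before the annotated start and runs across it, so only its first arm is printed. Of the genes with such a pair, Dnaaf6 fell, and Cfap298 (-0.10), Cfap20dc (-0.20) and Dnaaf6b (-0.06) did not pass.

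Radial spoke genes gave few calls. Of 7, Rsph14 rose, Rsph1 fell, and Rsph4a, Rsph6a, Rsph9, Cfap61 and Cfap206 did not pass, with differences from -0.29 to 0.32. A second cluster of Cfap61, fitted on its own, passed as higher (0.32, limma adjusted p = 0.0486). In both Cfap61 clusters the round spermatid arrays lay above every pachytene array. Rsph14 read 9.65, 9.85, 9.79 and 9.68 in pachytene spermatocytes and 10.85 and 10.92 in round spermatids, 2.21-fold higher (log2 difference 1.14, SE 0.11, adjusted p = 0.000285). Both round spermatid values were clear of every pachytene value. Rsph1, a spoke head protein, fell by 0.54 (SE 0.10, adjusted p = 0.00381), from between 12.70 and 12.80 to 12.17 and 12.25. That call was lost without either round spermatid array. Rsph4a, a spoke head protein of airway cilia, lay low on every array, between 6.18 and 6.70. Its testis relative Rsph6a differed by 0.04 and overlapped between the cell types.

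Genes of the central apparatus split. Cfap46, Cfap54, Cfap65 and Cfap74 fell, Cfap47 and Cfap221 rose, and Cfap69 (0.15) did not pass. Cfap46 read 11.17, 10.86, 10.92 and 10.86 in pachytene spermatocytes and 9.89 and 9.82 in round spermatids, 2.14-fold lower (log2 difference -1.10, SE 0.12, adjusted p = 0.000423). Cfap74 went from 11.55, 11.27, 11.29 and 11.30 to 10.59 and 10.60, 1.69-fold lower (log2 difference -0.76, adjusted p = 0.00184). Both genes have 2 clusters, and each of them passed as lower. The second cluster of Cfap54, at -0.28, did not pass. Cfap54 and Cfap65 fell by 0.58 and 0.57 in the clusters of highest mean, and both calls were lost without either round spermatid array, as was that of Cfap74 without the WT one.

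Cfap47, on the X chromosome, had the largest rise of the 68 genes. It read 7.36, 7.09, 8.31 and 6.90 in pachytene spermatocytes and 9.65 and 9.62 in round spermatids (log2 difference 2.22, SE 0.34, adjusted p = 0.00161). All pachytene values but that of KO array 1 lay below the median of all clusters on their arrays (7.63 to 7.77), so no fold is given. KO pachytene array 1 stood above the other pachytene arrays but more than 1 log2 unit below the round spermatids. The difference was 2.42 in WT and 2.02 in KO. Cfap221 rose by 0.53 (SE 0.14, adjusted p = 0.0182), and its call was lost without either round spermatid array or either WT pachytene array.

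Tektins, filament proteins on the inside of the doublets, all rose. Tekt2 read 12.08, 11.97, 12.004 and 11.92 in pachytene spermatocytes and 12.72 in each of the round spermatid arrays, 1.65-fold higher (log2 difference 0.72, SE 0.10, adjusted p = 0.00124). Tekt4 went from 12.61, 12.49, 12.62 and 12.57 to 13.10 and 13.14 (log2 difference 0.55, SE 0.10, adjusted p = 0.00421). Tekt3 went from 11.23, 11.00, 11.12 and 11.10 to 11.69 and 11.60 (log2 difference 0.53, SE 0.11, adjusted p = 0.00724). No tektin overlapped between the cell types. Tekt5 rose by 0.48 (adjusted p = 0.00917) and Tekt1 by 0.35 (adjusted p = 0.0334). With either round spermatid array left out, Tekt2 was the only tektin to pass. Tekt1 was also lost without either WT pachytene array and, at 0.25, after a second quantile normalization.

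Of the 11 genes for other doublet inner proteins and for the tether and base of the inner arms, 4 rose and none fell. Cfap77, a doublet inner protein, read 9.15, 9.40, 9.55 and 9.16 in pachytene spermatocytes and 10.94 and 10.92 in round spermatids, 3.07-fold higher (log2 difference 1.62, SE 0.14, adjusted p = 0.000214). Cfap100, which belongs to a complex at the base of an inner arm, went from 8.61, 8.74, 8.66 and 8.63 to 10.10 and 9.83, 2.47-fold higher (log2 difference 1.31, SE 0.11), with the lowest adjusted p of the 68 genes, 0.000199. Both were clear of every pachytene array. The doublet inner protein Cfap45 rose by 0.68 (SE 0.10), from 10.67, 10.79, 10.84 and 10.79 to 11.44 and 11.48. Cfap126 rose by 0.70 (SE 0.13), from 11.67, 11.86, 11.76 and 11.47 to 12.41 and 12.38. Again neither overlapped, though Cfap126 lost its call without either round spermatid array. The other 7, namely Cfap20, Cfap43, Cfap44, Cfap52, Cfap53, Cfap57 and Cfap161, lay between -0.20 and 0.20 and did not pass.

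Among the 9 remaining Cfap genes, Cfap58, Cfap97d1 and Cfap157 rose and none fell. Cfap97d1, needed for a normal sperm tail, read 9.94, 10.02, 10.45 and 9.55 in pachytene spermatocytes and 11.62 and 11.52 in round spermatids, 2.99-fold higher (log2 difference 1.58, SE 0.22, adjusted p = 0.00114). Cfap58 went from 9.95, 9.98, 10.16 and 9.82 to 11.24 and 11.23, 2.39-fold higher (log2 difference 1.26, SE 0.13, adjusted p = 0.000296). Cfap157 went from 11.62, 11.76, 11.72 and 11.53 to 12.31 and 12.36, 1.6-fold higher (log2 difference 0.67, SE 0.11, adjusted p = 0.00258). Cfap157 lost its call without the KO round spermatid array. The KO pachytene arrays of Cfap97d1 were 0.90 apart, and its round spermatid values were still higher than both. Cfap70 (-0.37, adjusted p = 0.0511), Cfap97, Cfap20dc, Cfap36, Cfap299 and Cfap410 did not pass. The Cfap58 promoter window holds a single RFX arm, while that of Cfap20dc holds 4, 1 of them overlapped by a MYB site. They are shown as examples of a lone and a repeated match (GRCm38.p6, RFX arms and the MYB site in capitals), Cfap58 from chr19:47937641-47937670 on the plus strand and Cfap20dc from chr14:8666367-8666528 on the minus strand.
Cfap58: gggggcgtggcgGTTGCCaggcgaccgaag
Cfap20dc: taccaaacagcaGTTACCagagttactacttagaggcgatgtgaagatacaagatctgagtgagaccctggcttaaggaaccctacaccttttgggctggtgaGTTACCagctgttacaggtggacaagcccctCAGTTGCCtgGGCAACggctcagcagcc

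**Figure D3:**
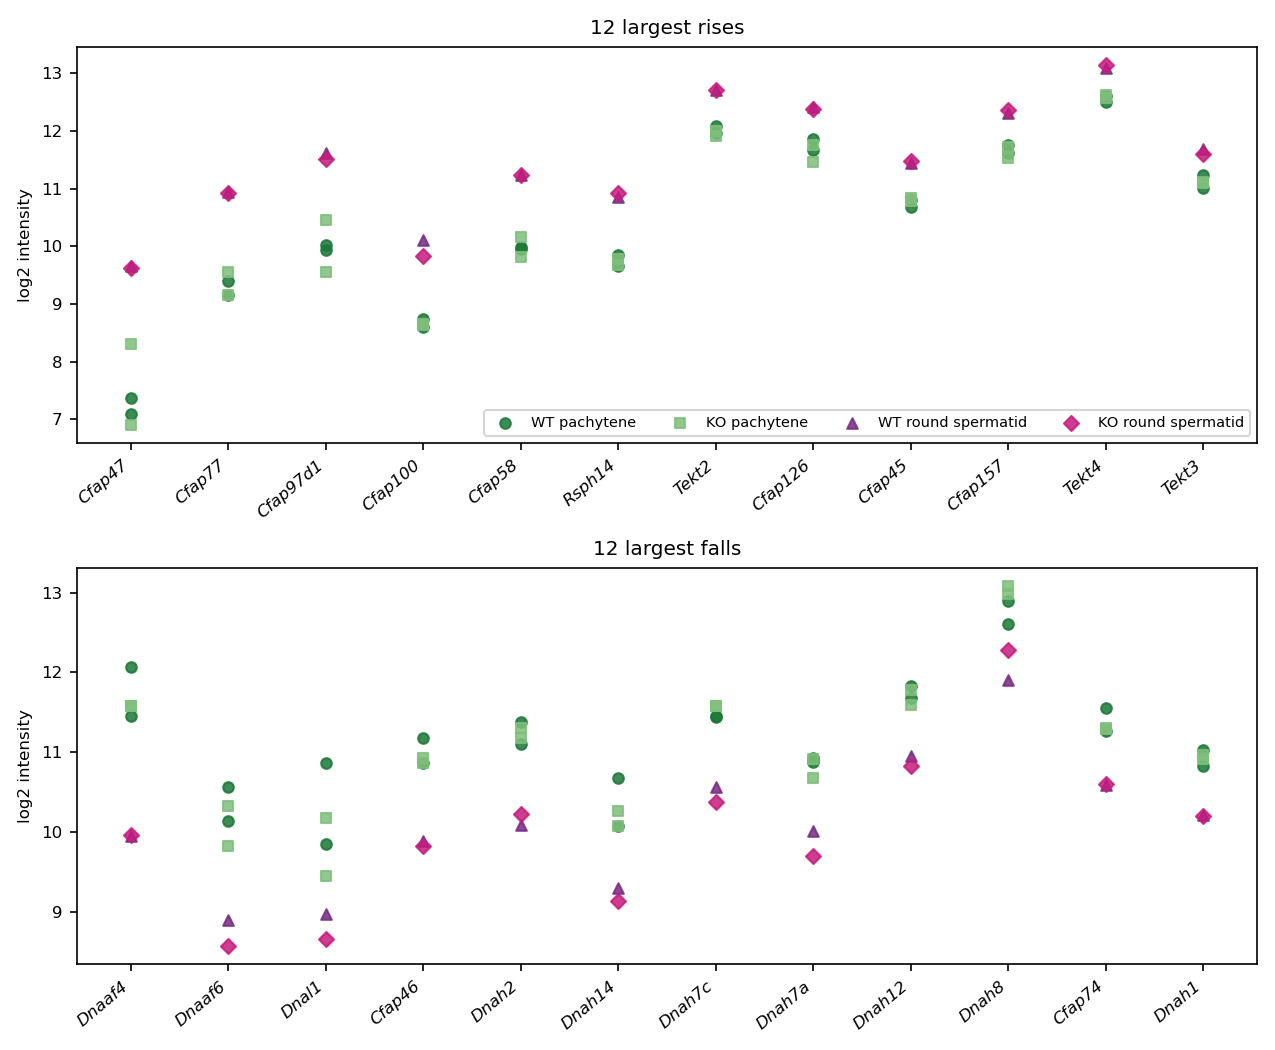
Log2 intensity on each of the 6 arrays for the 12 members with the largest rise and the 12 with the largest fall among those past the threshold. In each gene the round spermatid arrays (triangle and diamond) lie on 1 side of the 4 pachytene arrays (circles and squares), and Cfap47 and Dnal1 show the widest pachytene spread.

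The arrays were not equally far apart within a cell type. Over the 16 members that rose, KO pachytene array 1 was above KO pachytene array 2 in 14, with a median gap of 0.10, whereas the WT pair had a median gap of -0.06. Over the 18 that fell, the KO pair had a median gap of 0.00. On the same arrays the mean of the round spermatid markers was 11.64 on KO pachytene array 1 and 11.24 on array 2, and that of the pachytene markers was 11.58 and 11.37. The WT pair differed the same way in round spermatid markers, 11.38 and 11.24, and not in pachytene markers, 11.49 and 11.52. The part of this in the results was not tested.

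Promoter windows were available for 58 of the 68 genes (65 windows of 300 bases, from 250 before to 50 after a RefSeq start, searched on both strands). The RFX arm GTTGCC was in the windows of 39.7% of the 58 genes and of 14.1% of all 27025 genes with a window. The 27025 genes were not restricted to those tested on the arrays. Counting GTTGCC or GTTACC, the shares were 51.7% and 20.8%. Either arm was in 8 of the 15 genes that rose, in 9 of the 15 that fell and in 13 of the 28 that did neither. The MYB site CAACTG, which overlaps the RFX arm in the Dnah7a and Dnah7b stretches above, was in 29.3% of the 58 genes and 15.4% of all genes. It was in 7 of the 15 genes that fell and in 2 of the 15 that rose. The core of the cAMP response element, TGACG, was in 15.5% of members and 23.0% of all genes. A MYB site overlapping an RFX arm was in 5 of 65 member windows (7.69%: Cfap161, Cfap20dc, Dnah7a, Dnah7b and Dnaic2) and 1.17% of all windows. Dnah7a and Dnah7b are close copies, so their matches may not be independent. Member windows had a median GC content of 56%, against 52.7% for all windows. A match is only a run of letters, and these shares were not tested.

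**Figure D4:**
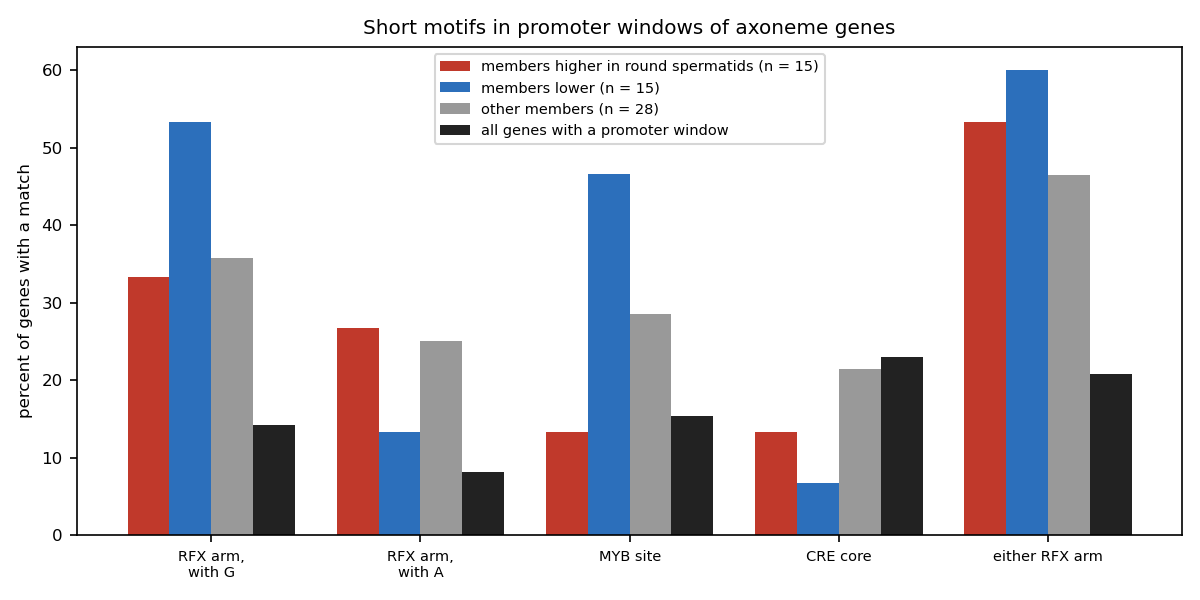
Percent of genes whose promoter windows hold each short motif, for members that rose (15), members that fell (15), other members (28) and all 27025 genes with a window. The bars for either RFX arm are above that of all genes in each member group, and the MYB site bar is highest for members that fell, at 46.7% against 13.3% for those that rose.

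Transcripts of factors that bind such motifs, or that regulate ciliary genes, were measured too. Rfx3, Rfx1 and Foxj1 rose in round spermatids by 1.64, 1.44 and 1.30 (limma adjusted p = 0.000366, 0.000244 and 0.000185). Mybl1, which encodes the MYB factor of pachytene spermatocytes, fell by 0.87 (adjusted p = 0.00064). Rfx2 (-0.06) and Crem (0.21), both known for their role in spermatid genes, did not pass. No link between these factors and the members was tested.

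Axoneme genes with other names were read on the same arrays. Of 102 measured, 23 rose and 17 fell, with a median difference of 0.00. Of all genes tested, 17.8% rose and 17.1% fell. These are the shares to set beside the counts of each list below, and no list was tested as a set. Doublet inner proteins had 5 of 10 higher and none lower, led by Efhc2 at 1.84, Ribc1 at 1.40, Efhb at 0.78 and Spaca9 at 0.72. Efhc2 and Ribc1 are on the X chromosome, and the part of this in their rise was not tested. Outer arm docking genes had 2 of 5 higher, Efcab1 at 1.63 and Armc4 at 1.00, and 1 lower, Ccdc114 at -0.52. Of 9 other assembly factors, Zmynd10 fell by 0.60 and none rose. Both ruler genes, which set the spacing of arms and spokes along the doublet, fell, Ccdc39 by 0.59 and Ccdc40 by 0.33.

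The nexin-dynein regulatory complex, which links neighbouring doublets, had 2 of 10 higher (Iqca 1.90, Iqcd 0.38) and 1 lower (Iqcg -0.62). Other central pair genes had 2 of 13 higher (Spag6 1.14, Mycbpap 1.09) and 1 lower (Spef1 -0.87). Partners of the spokes and inner arms had 2 of 9 higher (Dynll2 0.62, Dydc1 0.40). Intraflagellar transport, which carries parts into a growing cilium, had 5 of 28 higher, led by its motor gene Kif17 at 1.53 and Kifap3 at 0.83, and 8 lower, led by Ttc30a1 at -1.79 and Ift80 at -1.59. Cytoplasmic dynein genes had 2 of 7 higher (Dynlt3 1.10, Dynlrb1 0.92) and 2 lower (Dync1li1 -0.80, Dync1i2 -0.51). Dynlt3 is also on the X chromosome. Of 10 markers of multiciliated epithelium, which also makes axonemes, 3 rose (Deup1 0.94, Ccno 0.71, Gmnc 0.68). Gmnc lay below the lower quartile of all clusters on every pachytene array, so the size of its rise cannot be read as a fold. Mcidas lay at -0.05. It and the other markers of this list, from Foxn4 at -0.24 to Krt18 at 0.09, did not pass. The part of such cells in the results was not tested.

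No axoneme gene passed for genotype. In pachytene spermatocytes 0 of the 68 passed in limma (0% of all genes did), and 0 passed over both cell types (0% of all) or for the interaction of genotype and cell type (0% of all). At an unadjusted p under 0.05 the members numbered 0, 2 and 1, and all genes 430, 979 and 130. The 2 members over both cell types were Dnaaf6b and Dnah8, with a lowest adjusted p of 0.792. KO arrays lay on 1 side of the WT arrays in pachytene spermatocytes in 16 members (23.5%, against 25% of all genes).

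Larger pachytene differences, of Dnal1 (-0.55), Dnaaf6b (-0.54) and Cfap47 (0.38), came with arrays that overlapped between the genotypes. Among members without overlap the largest differences were under 0.3. Dnah8 was higher in KO, at 13.08 and 12.99 against 12.89 and 12.61 in WT (log2 difference 0.29, SE 0.16). Cfap57, a tether protein of the inner arms, was higher at 12.12 and 12.22 against 12.05 and 11.88. Dnaic1 was at 12.001 and 12.11 in KO against 11.998 and 11.73 in WT, values that almost touch. Cfap52, a doublet inner protein, was at 12.39 and 12.45 against 12.39 and 12.16. Lower in KO were Cfap299, at 11.53 and 11.50 against 11.58 and 11.90, and Cfap43, a tether protein, at 11.43 and 11.25 against 11.57 and 11.46. All of these 6 lay within 0.3 of equal, and none had an unadjusted p under 0.05. Cfap65 was at 12.59 and 12.63 in KO against 12.81 and 12.71 in WT. Dnali1 was at 12.54 and 12.52 against 12.55 and 12.71. In round spermatids, WT and KO read 11.93 and 11.95 for Dnaic1, 12.41 each for Cfap52, 11.72 and 11.57 for Cfap299, and 11.54 and 11.48 for Cfap43. They read 12.16 and 12.07 for Cfap65, and 12.43 and 12.44 for Dnali1.

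In round spermatids each genotype had 1 array, so the difference has no replicate check. At least 2-fold lower in KO was 1 member (1.47%, against 0.351% of all genes), and at least 2-fold higher were none (against 0.0335%). The member is Dnaaf6b, at 7.97 in WT and 6.30 in KO. The KO value is near the lower quartile of all clusters on its array, 6.17, so no fold is given. In pachytene spermatocytes Dnaaf6b read 7.07 and 7.86 in WT and 7.12 and 6.73 in KO, which overlap (log2 difference -0.54, SE 0.27).

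The other genotype differences in round spermatids were under 0.4. Lower in KO were Dnah7b by 0.36, Dnaaf6 by 0.33, Dnah7a by 0.32 and Cfap20dc by 0.32, the last from 10.06 to 9.74. Higher were Dnah8 by 0.37, Dnaic2 by 0.18 (11.10 and 11.28), Dnah2 by 0.14, Rsph6a by 0.12 (11.60 and 11.72) and Cfap57 by 0.11 (11.81 and 11.92). The pachytene arrays of Cfap20dc (9.92, 10.41, 10.09 and 9.99), Dnaic2 (11.05, 10.81, 10.69 and 11.11) and Rsph6a (11.86, 11.44, 11.46 and 11.70) overlapped between the genotypes. KO was below WT in 41 of the 68 members and in 9 of the 10 inner arm heavy chains. The 9 include Dnah1 at -0.002 and the close copies Dnah7a, Dnah7b and Dnah7c. The share of all genes with KO below WT was not counted, so no effect on these chains can be read from the count. The exception among the chains was Dnah2. Median genotype differences were -0.03 over the members and 0.05 over all genes in round spermatids, and -0.03 and 0.03 in pachytene spermatocytes. Pachytene and spermatid differences, which come from different arrays, had r = 0.60 over the 68 members and 0.48 over 67 without Dnaaf6b. This is given as a description. The same r was not computed over all genes, and genes are not replicates of a genotype, so no trait of the members follows from it.

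KO arrays stood above WT arrays in both cell types without overlap in 7 members, Cfap52, Cfap57, Dnah17, Dnah8, Dnaic1, Rsph1 and Tekt1, and 10.9% of all genes did so. They stood below in 6, Cfap206, Cfap299, Cfap36, Cfap410, Cfap43 and Cfap65, and 7.09% of all genes did so. Dnah8 lies on chromosome 17, as Rnf8 does, with 6 protein-coding genes between them in the RefSeq order. Rsph1 is on the same chromosome with 15 genes between, at 0.10 and 0.08 above WT in the 2 cell types. Tekt4 and Rsph9 are farther along, with 106 and 346 genes between, and differed by 0.04 and 0.00 in pachytene spermatocytes.

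**Figure D5:**
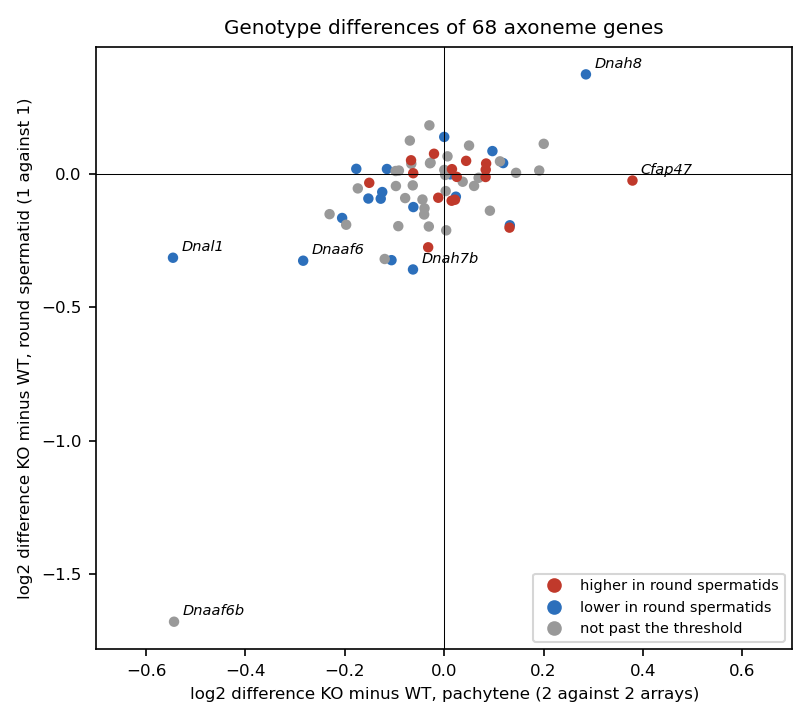
Log2 difference of KO minus WT for the 68 genes in round spermatids (vertical, 1 array of each genotype) against pachytene spermatocytes (horizontal, 2 arrays of each), coloured by their call between the cell types. Dnaaf6b has the lowest round spermatid difference, which rests on a KO value of 6.30 near the lower quartile of its array, Dnah8 is the highest at 0.37, and the others lie within 0.4 of 0 on the vertical axis.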

How the data were processed

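The authors deposited linear intensity. The submitters' processing notes name RMA and Affymetrix Expression Console 1.1, and their options and the genome build behind the arrays are not given here. Log2 was taken before testing, since the planned tests assumed it. Of 35556 clusters, 21789 name a single gene, 1621 several and 12146 none; 21698 matched a RefSeq table by gene identifier. The 17925 genes that reached log2 6 on any array were tested.

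Tests used limma 3.58.1 in R 4.3.3 (lmFit, eBayes, Benjamini-Hochberg over all genes, threshold 0.05). The additive fit has 3 residual degrees of freedom and the fit with 4 groups 2. The cell type comparison of the additive fit was run on simulated data, with independent noise of the same SD for every gene. Spread differs between genes on these arrays, so that run does not vouch for the calls. The members and lists were chosen with earlier results of these data known. Older symbols of the docking genes were matched from general knowledge.

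Values on every array are given for the 12 largest changes in each direction between the cell types, for the 4 largest genotype differences in each direction in pachytene spermatocytes among members whose arrays do not overlap, for the 5 largest in each direction in round spermatids, and for members on X, and up to 4 genes of each other list are named. Pachytene arrays that share a number did not deviate together (r = -0.23 over genes, 2 pairs), and the numbers are not taken to pair them. So few arrays cannot exclude a pairing. Both round spermatid arrays carry number 2, so an effect of the number would be partly mixed with cell type. Alternatives covered normalization, filters, clusters, the variance prior, a replicate block and each array left out. Promoter sequences are from RefSeq (GRCm38.p6); 10 members had no window in the table.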

Additional observations from a re-analysis of the deposited data

Results flagged for a closer look

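Dnaaf6b had differences of opposite sign between the cell types in the 2 genotypes: that of round spermatids minus pachytene spermatocytes was 0.51 for WT but -0.63 for KO, which are -1.13 apart (adjusted p = 1.00 for the interaction in limma over all genes). These values rest on 1 round spermatid array per genotype and on a KO reading of 6.30, near the lower quartile of all clusters on that array (6.17), so their size cannot be read as a fold. The other 3 had a genotype difference of opposite sign in the 2 cell types. In pachytene spermatocytes both KO arrays lay on 1 side of both WT arrays, and in round spermatids the single KO array lay on the other side of WT. KO minus WT in round spermatids less that in pachytene spermatocytes was -0.33 for Dnah7c (0.13 in pachytene spermatocytes, -0.19 in round spermatids), 0.11 for Dnali1 and 0.10 for Cfap161. The interaction had an adjusted p = 1.00 in limma for each of these 3 genes. Each round spermatid group is a single array. No group has 4 or more arrays, so no search for outlying arrays was made.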

How the results depend on the processing

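Of the 34 calls between the cell types, 18 stayed past the threshold under every alternative run: Dnaaf4, Dnaaf6, Cfap46, Dnah1, Dnah2, Dnah7a, Dnah7c, Dnah8, Dnah12, Dnah14, Cfap45, Cfap47, Cfap58, Cfap77, Cfap97d1, Cfap100, Rsph14 and Tekt2. None reversed. Leaving out 1 array at a time, the members that rose numbered 8 to 20 and those that fell 11 to 20, with the low counts of risen members when a round spermatid array was absent (9 without WT, 8 without KO) and the low count of fallen ones, 11, without the KO array. The count of changes within WT, 19, ranged from 8 to 31 over the arrays left out and was 31 with a trended and robust prior. That within KO, 21, ranged from 13 to 24. With the replicate block, which forces an unsupported paired design, 15 rose and 18 fell, 17 changed within WT and 18 within KO, and 0 changed by genotype in pachytene spermatocytes. Between the genotypes in round spermatids, 1 member was 2-fold apart and 0 passed in the fit with 4 groups, whose spread comes from the pachytene pairs. That fit is no replicate check of the 1 array per genotype, and a p-value count is no second reading of a fold count. Dnah3 passed as higher with its clusters averaged (1.69), with the other prior (0.65) and without KO pachytene array 1 (0.81). Dnah7b, at -0.36 between genotypes in round spermatids, was at -0.18 with its clusters averaged. Dnah5, Dnah9, Dnah11 and Rsph4a lie below the median of all clusters (7.62 to 7.77) on every array, and Dnaaf6b and Cfap47 on some, which limits what can be read from them. Each cluster fitted on its own was an alternative chosen after seeing the data.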

Other observations

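Clusters that list a family gene with another gene were not tested. A pair of clusters for Rsph3a and Rsph3b together, spoke proteins, read 12.86, 12.85, 12.73 and 12.70, and 12.93, 12.94, 12.86 and 12.87, in pachytene spermatocytes. They read 12.55 and 12.39, and 12.59 and 12.45, in round spermatids, below every pachytene array in both clusters. In both, KO lay below WT in pachytene spermatocytes, by 0.14 and 0.07, and in round spermatids, by 0.16 and 0.14. The cluster shared by Cfap43 and Itprip was 0.26 higher in round spermatids. The pair shared by Dnaaf2 and Rpl36al was lower by 0.16 and 0.19.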
